A study of Mus musculus with 5 samples.

Results

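Ptbp1, Ptbp2 and Ptbp3 encode the polypyrimidine tract binding (PTB) proteins, and Raver1 and Raver2 encode the RNA-binding proteins that join them as partners. These 5 genes were taken by family membership from the 21887 protein-coding genes of the annotation. No value entered the rule, but earlier results of these data were known when the family was picked. H3K36me3 is the trimethylation of lysine 36 on histone H3, a mark laid down along the bodies of transcribed genes. It was profiled by chromatin immunoprecipitation and sequencing with antibody ab9050 in mTEClo, medullary thymic epithelial cells with low CD80. The cells were sorted from the thymus of individual wild-type B6 mice as EpCAM+ UEA-1+ Ly51lo CD80lo, and all samples share this strain, genotype and cell type. There were 2 ChIP libraries, series 1 and series 2, which are the replicates, and 3 input libraries without antibody. Input served only as the background of the authors' peak calls. The labels give neither the age nor the mouse of each library, so differences between the series mix technical spread with any spread between mice. Series 1 was also called against 2 inputs and series 2 against 1. The peak calling therefore enters these differences and cannot be told apart from the rest. There is no second condition to compare.

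PTB proteins bind UC-rich stretches of pre-mRNA, the kind of sequence that also lies before the 3′ splice site, and often keep an exon out of the message. Ptbp1 is the form of most non-neuronal cells. Ptbp2 is the form that takes over in developing neurons, where its own message is no longer made unproductive by Ptbp1, and Ptbp3 is known mainly from blood cells. Raver1 binds Ptbp1 and adds to its repression of exons, and it also binds the cytoskeletal proteins vinculin and alpha-actinin. Raver2 is its paralogue. In thymic medullary epithelium, alternative splicing adds to the range of self-antigen forms that developing T cells meet.

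The peak lists set what can be seen. Series 1 held 7231 broad peaks with a median width of 483 bp and series 2 held 10243 with a median width of 222 bp. Each peak carries the authors' whole-number score, which ran from 10 to 378 in series 1 and from 10 to 483 in series 2, with medians of 21 and 16. In series 2, 65.6% of peaks were at most 9 bp wider than the narrowest peak, against 3.68% in series 1. The files hold no read counts, so the depth is not known, and where no peak was called the mark was under the limit of detection of that library. In cells taken in bulk, fewer cells with the mark and less of the mark per cell cannot be told apart. Among 13 markers of medullary thymic epithelium, 6 had a peak in either series. Krt5, Itga6 and Lamb3 had one in both, Trp63 in series 1 only, and Relb and Cd80 in series 2 only. Epcam, Krt14, Krt8, Foxn1, Aire, Ccl21a and Cd40 had none. The peak in Cd80, the marker that is low on the sorted cells, covered 0.594% of its span. Of 10 thymocyte markers, Ptprc and Cd3e among them, none had a peak in either list, and neither had any of 3 fibroblast or 3 endothelial markers. Among B cell markers Ebf1 had peaks in both lists and Ms4a1 had none, and of 3 myeloid markers Itgam and Csf1r had 1 peak in 1 list each. Peaks in either list were found in 27.4% of all protein-coding genes, so having none is the usual state of a gene in these lists and few markers say little about purity. The part of other cells in the values below was not tested.

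Ptbp2 and Ptbp1 carried peaks in both libraries. Raver1 and Ptbp3 carried 1 peak in 1 library each, and Raver2 none. A gene was counted where a peak overlapped its span by 1 bp or more. In series 1 this held for 3 of the 5 genes, against 16.3% of all protein-coding genes. In series 2 it held for 3 of 5, against 19.5%, in both series for 2 of 5, against 8.42%, and in neither for 1 of 5, against 72.6%. For 3 of 5 the exact binomial 95% interval is 14.7 to 94.7%, which covers counting error only. The median share of the gene span under peaks was 0.378% over the 5 genes in series 1 and 1.55% in series 2. Over all protein-coding genes the median was 0 in each, because most of them had no peak. Over protein-coding genes with a peak in the series, it was 1.19% in series 1 and 0.635% in series 2. Only Ptbp1 and Ptbp2 could have touching peaks, and in neither did a peak of 1 series touch a peak of the other. Of the 1843 protein-coding genes with peaks in both series, 17.6% had peaks that touched.

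**Figure D1:**
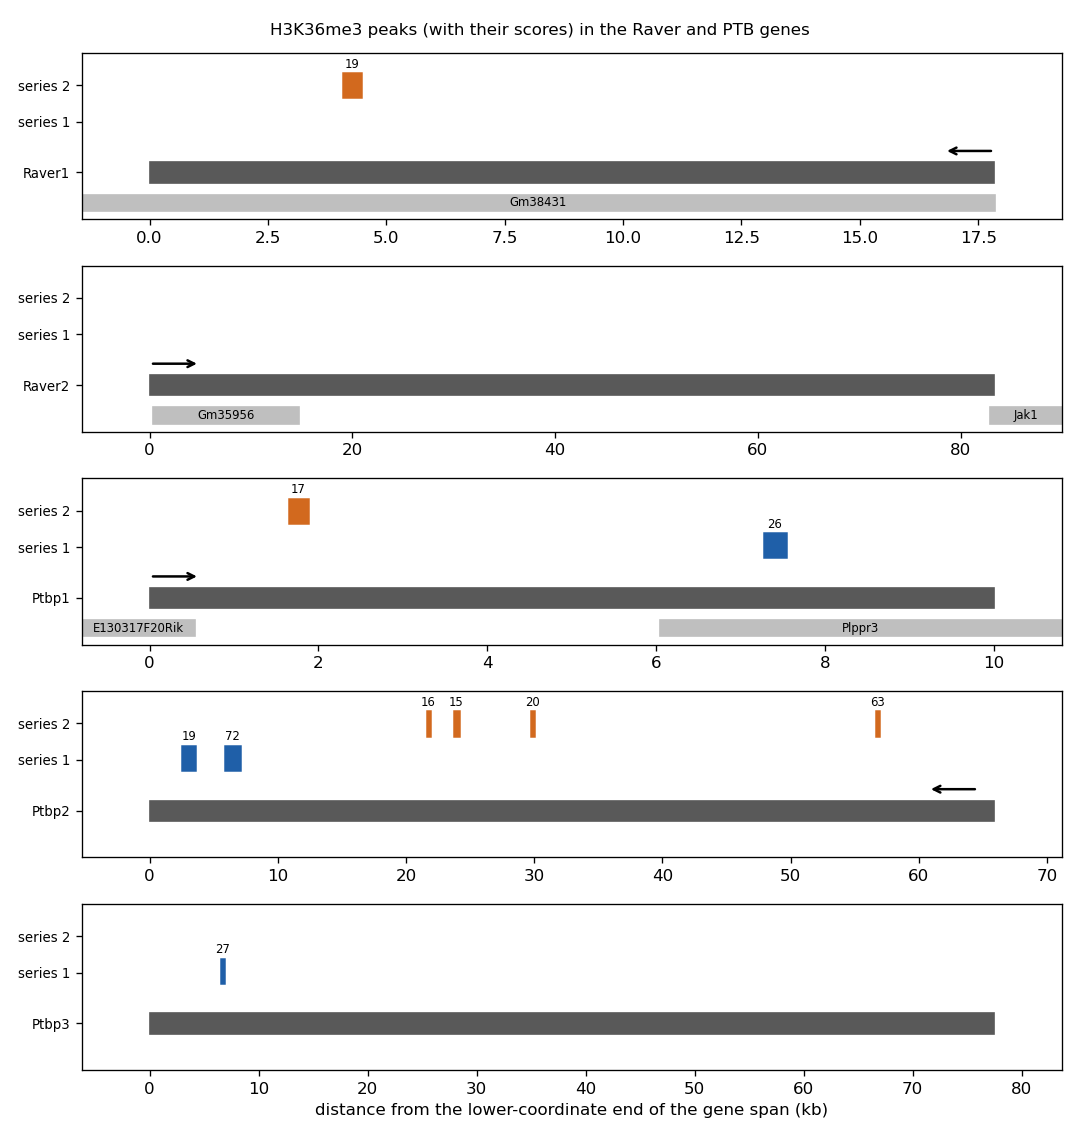
Positions of H3K36me3 peaks of series 1 (blue) and series 2 (orange) along each gene (dark bar), in kb from the lower-coordinate end of its span, with the authors' score above each peak. Arrows start at the annotated start site where one was used and point along transcription, and light bars are overlapping genes. Ptbp2 holds 2 series 1 peaks and 4 series 2 peaks at separate places, Ptbp1 holds 1 of each, and Raver2 holds none.

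**Figure D2:**
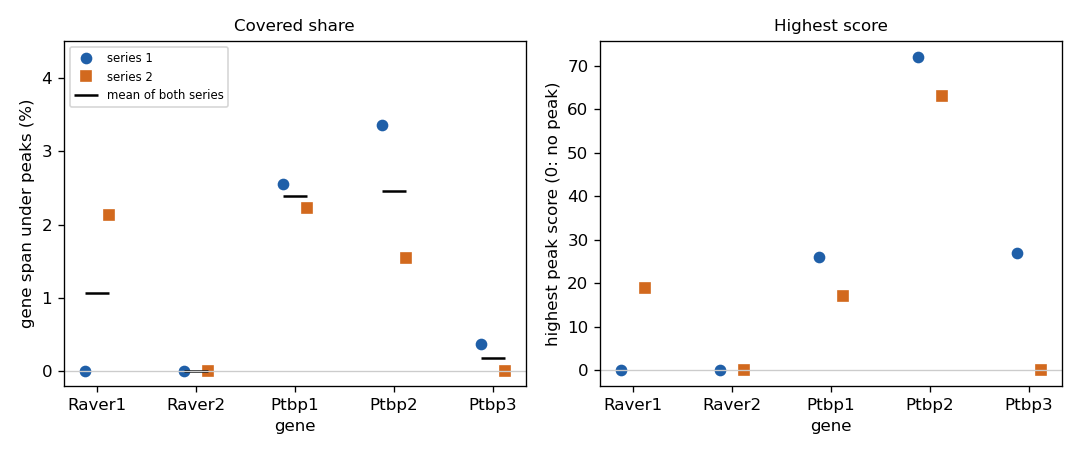
Left, the percentage of each gene span under peaks in series 1 (circles) and series 2 (squares), with a dash at the mean of both. Right, the highest peak score in the gene, where 0 stands for no peak. Ptbp1 and Ptbp2 are above 0 in both series, and Ptbp2 has the highest scores of the 5 genes, 72 and 63.

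Gene length bears on these counts. From the shortest to the longest of 10 equal classes by length, the share of protein-coding genes with a peak in both series went up, reaching 1.19% in the class of Ptbp1, 4.84% in that of Raver1, 19.6% in that of Ptbp2, Ptbp3 and Raver2, and 34.3% in the longest class. Ptbp1 spans 10.0 kb and Raver1 17.8 kb, while Ptbp2 spans 65.9 kb, Ptbp3 77.5 kb and Raver2 83.3 kb. Ptbp1 is thus the shortest of the 5 and 1 of the 2 with peaks in both libraries. Raver2 is the longest and has none. With 5 genes, no relation between length and peaks among them was tested.

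**Figure D3:**
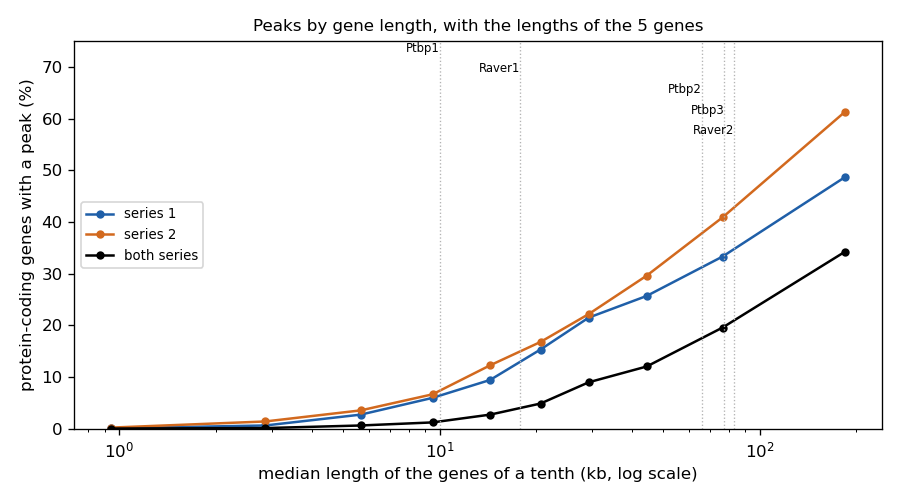
Percentage of protein-coding genes overlapped by a peak of series 1, of series 2 and of both, for 10 classes of equal size plotted at their median length (kb, log scale). Dotted lines mark the lengths of the 5 genes, from Ptbp1 at 10.0 kb to Raver2 at 83.3 kb.

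The bases before the start sites are shown for Ptbp1, Ptbp2 and Raver2, the genes with peaks in both libraries and the gene with none, because the mark was looked for there as well as in gene bodies. They are the 250 bases upstream of the RefSeq start, 5′ to 3′ on the gene's own strand in build GRCm38.p6, the patched form of mm10, and capitals mark each CG pair. The Ptbp1 window is chr10:79854182-79854431 on the plus strand, inside the span of the non-coding gene E130317F20Rik. The Ptbp2 window is chr3:119783389-119783638 on the minus strand, within the outer limits of the Ptbp2 span. The Raver2 window is chr4:101068788-101069037 on the plus strand.
Ptbp1: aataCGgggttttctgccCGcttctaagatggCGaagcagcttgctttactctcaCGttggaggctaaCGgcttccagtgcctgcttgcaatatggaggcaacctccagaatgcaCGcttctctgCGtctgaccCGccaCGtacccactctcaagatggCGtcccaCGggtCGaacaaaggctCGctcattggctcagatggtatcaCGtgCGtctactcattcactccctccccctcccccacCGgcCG
Ptbp2: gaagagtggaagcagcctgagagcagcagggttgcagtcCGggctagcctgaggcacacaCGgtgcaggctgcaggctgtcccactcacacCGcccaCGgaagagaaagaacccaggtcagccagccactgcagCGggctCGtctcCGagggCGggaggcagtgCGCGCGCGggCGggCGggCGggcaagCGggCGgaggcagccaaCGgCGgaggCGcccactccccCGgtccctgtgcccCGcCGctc
Raver2: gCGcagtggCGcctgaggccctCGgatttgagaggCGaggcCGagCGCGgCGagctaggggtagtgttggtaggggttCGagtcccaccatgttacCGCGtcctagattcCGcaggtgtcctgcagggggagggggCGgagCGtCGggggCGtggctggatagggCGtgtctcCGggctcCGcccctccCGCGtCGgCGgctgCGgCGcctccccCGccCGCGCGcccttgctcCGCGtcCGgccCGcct
Start windows were found in the RefSeq table for 4 of the 5 genes. The letters CG, which read the same on both strands, occurred 33 times in the window of Raver2, 23 times in that of Ptbp2, 17 times in that of Ptbp1 and 16 times in that of Raver1. The median was 10 over 21263 windows of protein-coding genes, and 93.4% of those windows held at least 1. As many as in Raver2 were found in 5.13% of windows, and as many as in Ptbp1 in 31.4%. None of the 4 windows was touched by a peak, which is how nearly all windows stood: series 1 peaks touched 0.047% of them and series 2 peaks 0.0611%. The nearest peak to the Ptbp1 window lay 1.65 kb away in series 2 and 7.28 kb away in series 1. From the Raver2 window the distances were 94.6 kb and 194.9 kb.

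Ptbp2 was the most richly marked of the 5 genes by number of peaks and by score. It lies on chromosome 3 from 119718741 to 119784647 (mm10), is transcribed on the minus strand, and overlaps no other annotated gene. The only gene within 50 kb is the pseudogene Gm4332, 8.84 kb away and without a peak. Series 1 had 2 peaks in it and series 2 had 4. Among the 5287 other protein-coding genes whose length is within a factor of 2 of that of Ptbp2, 16.4% had peaks in both series, 9.44% had at least 2 in series 1 and 1% had at least 4 in series 2. At least 6 peaks over both lists occurred in 0.959% of all protein-coding genes, and in 1.15% of those of like length.

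The series 1 peaks of Ptbp2 lay near the 3′ end of the gene. The stronger, at chr3:119724619-119725807, was 1189 bp wide, wider than 94.0% of the series 1 list, and its score of 72 was reached by 2.21% of that list. The second, at chr3:119721276-119722300, was 1025 bp wide with a score of 19, below the list's median of 21. Measured from the start site to the far end of the span, their midpoints stood at 90.0% and 95.3% of the gene.

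The series 2 peaks of Ptbp2 were narrower and lay elsewhere. The strongest, at chr3:119775413-119775628, had a score of 63, reached by 1.20% of the series 2 list, and a width of 216 bp, the narrowest in that list. It stood 7.87 kb after the start site, at 12.2% of the gene. The other series 2 peaks had scores of 20, 15 and 16 and midpoints at 53.8%, 63.0% and 66.3% of the gene. Their widths were 221, 367 and 217 bp. The nearest pair of peaks from different series was 14.6 kb apart, while the median gap was 6.02 kb (interquartile range 1.14 to 16.2 kb) over 865 other protein-coding genes of like length with peaks in both series. A gap at least as large occurred in 27.6% of them.

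The covered share of Ptbp2 was ranked among genes of like length with peaks in both series, and its score among all genes of like length. These ranks are therefore not compared with each other. Series 1 peaks covered 3.36% of the span and series 2 peaks 1.55%, a mean of 2.45% ± 1.28 (SD, n = 2). Of the 865 genes of like length with peaks in both series, 89.0% had a lower share in series 1 and 77.7% in series 2, with medians of 1.18% and 0.643%. A score of at least 50 in both lists was reached by 19 protein-coding genes, 0.0868% of all, and Ptbp2 was 1 of them. The others within a factor of 2 of its length, named after their values were seen, were Dync1h1, Ino80, Kat2b, Rhot1, Rin3, Srcap and Supt16, which are 0.132% of genes of like length. Of these, Kat2b and Supt16 were like Ptbp2 in having no touching peaks between the series. In series 2, 57.1% of peaks with a score of at least 50 were at most 9 bp wider than the narrowest, so a compact high-scoring peak was common there. In series 1 that share was 12.4%.

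Ptbp1 had 1 peak in each library, and the positions differed. The gene lies on chromosome 10 from 79854432 to 79864435 on the plus strand. Its series 1 peak, chr10:79861707-79861962, was 256 bp wide with a score of 26, which 32.7% of the series 1 list reached. It lay at 74.0% of the gene, in the stretch of 3961 bp that Ptbp1 shares with Plppr3, a gene for a phospholipid phosphatase-related membrane protein. Without strand in the data, that peak counts for both genes. The series 2 peak, chr10:79856080-79856302, was 223 bp wide with a score of 17, reached by 48.1% of its list. It lay 1.76 kb after the start site, at 17.6% of the gene, touched no other annotated gene, and was 5.40 kb from the series 1 peak.

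The covered share of Ptbp1 was 2.56% in series 1 and 2.23% in series 2, a mean of 2.39% ± 0.233 (SD, n = 2). A peak in both series occurred in 2% of the 6815 other protein-coding genes within a factor of 2 of its length, in series 1 in 7.53% and in series 2 in 8.95%. Among the 136 of these with peaks in both, the median share was 4.92% in series 1 and 2.97% in series 2, and 16.2% and 37.5% of the genes had a lower share than Ptbp1. Their peaks touched between the series in 42.6% of cases, and a gap as large as that in Ptbp1 occurred in 11.0%. Of the 13 genes within 50 kb of Ptbp1, 8 of them protein-coding, Plppr3 was the only one with a peak, the shared one. The neutrophil protease genes Prtn3 and Elane and the complement gene Cfd, which lie next along the chromosome, had none.

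Ptbp3 had a single peak, in series 1. The gene lies on chromosome 4 from 59471868 to 59549378, and no gene overlaps it. The peak, chr4:59478413-59478705, was 293 bp wide with a score of 27, reached by 30.1% of the series 1 list, and its midpoint stood 6.69 kb from the lower-coordinate end of the span. It covered 0.378% of the gene in series 1, against 0% in series 2, a mean of 0.189% ± 0.267 (SD, n = 2). The nearest series 2 peak was 101.8 kb from the span. Of 4777 other protein-coding genes within a factor of 2 of its length, 14.3% likewise had a peak in series 1 only. Its neighbour Susd1, which encodes a sushi-domain protein, lies 32.0 kb away and had 1 series 2 peak with a score of 12, while Hsdl2, 32.1 kb away on the other side, had none.

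Raver1 also had a single peak, in series 2. It lies on chromosome 9 from 21074158 to 21091999 on the minus strand. The peak, chr9:21078252-21078631, was 380 bp wide, wider than 81.9% of the series 2 list, with a score of 19, reached by 39.6% of it. It stood 13.6 kb after the start site, at 76.0% of the gene. It covered 2.13% of the span in series 2, against 0% in series 1, a mean of 1.06% ± 1.51 (SD, n = 2). The whole of Raver1 lies inside Gm38431, a non-coding gene of 24.5 kb whose synonyms in the table join Raver1 to a ferredoxin gene, so the peak counts for both. Of 7919 other protein-coding genes within a factor of 2 of its length, 10.6% had a peak in series 2 only.

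The neighbours of Raver1 include genes of leukocyte adhesion and cytokine signalling. Fdx2, a ferredoxin of mitochondrial iron-sulphur cluster assembly, ends 0.626 kb from Raver1 and had no peak. Tyk2, a Janus kinase that lies 12.1 kb away, had 1 series 2 peak with a score of 29. Icam1, an adhesion molecule for leukocytes that lies 45.3 kb away, had 1 series 1 peak with a score of 17 over 4.90% of its span. The nearest series 1 peak to Raver1 was 49.1 kb away, in Icam1.

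Raver2 had no peak in either library. It lies on chromosome 4 from 101069038 to 101152370 on the plus strand and is longer than 86.3% of protein-coding genes. Among the 4547 others within a factor of 2 of its length, 45.9% also had no peak in either series, so an empty gene of this size was common in these lists. The last 397 bp of its span overlap Jak1, the Janus kinase of interferon and cytokine receptors, and no peak lay in that overlap. Jak1 itself had 1 peak, in series 2, at chr4:101163617-101163833. It was 217 bp wide with a score of 12, which 98.1% of the list reached, and lay 11.2 kb beyond the end of Raver2. The nearest series 1 peak to Raver2 was 195.2 kb away, and 28.6% of protein-coding genes were at least as far from one.

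By mean covered share the order of the 5 genes was Ptbp2, Ptbp1, Raver1, Ptbp3 and Raver2. Each pair of neighbours in that order differed by less than the larger SD of the pair (n = 2). For a gene with a peak in 1 series only, however, the SD always exceeds the mean. The outcome for Raver1 with Ptbp3 and for Ptbp3 with Raver2 was therefore fixed and says nothing about their order. The order changed with the peaks used: with a score of at least 20 the means were 1.28% for Ptbp1, 1.23% for Ptbp2, 0.189% for Ptbp3 and 0 for both Raver genes. Without peaks that touch another gene, Raver1 was likewise at 0, below Ptbp3. In series 1 alone the order was Ptbp2, Ptbp1 and Ptbp3, with both Raver genes at 0. In series 2 alone it was Ptbp1, Raver1 and Ptbp2, with Ptbp3 and Raver2 at 0. With a score of at least 20, Ptbp1, Ptbp2 and Ptbp3 were left in series 1, where 10.9% of protein-coding genes had such a peak, and only Ptbp2 in series 2, where 9.01% did, and in both series, where 3.3% did. With a score of at least 50, only Ptbp2 was left in either list, against 1.48% of protein-coding genes in series 1 and 0.763% in series 2. The limit of 20 lies below the median score of series 1, 21, and above that of series 2, 16.

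The position of peaks along the gene can be set against the rest of the genome. Over protein-coding genes with a RefSeq start site, the median midpoint of a peak stood at 59.4% of the way from start to end in series 1 (4062 peaks, interquartile range 35.5 to 79.4%) and at 58.0% in series 2 (5055 peaks, 34.2 to 79.1%). All 3 series 1 peaks in Ptbp1 and Ptbp2 lay past 70% of the gene. Of the 6 series 2 peaks in Raver1, Ptbp1 and Ptbp2, those in Ptbp1 and at the 5′ end of Ptbp2 lay nearer the start than the lower quartile of their list, and the other 4 lay between 53.8% and 76.0%. Exon and intron limits were not used here, so these positions are not assigned to exons.

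Genes with covered shares most like those of Ptbp1 and Ptbp2 were sought among genes within a factor of 2 of their length, by distance between the log2 shares of both series. For Ptbp1 the nearest 5 of 136 were Erg28, Snrpb2, Alg5, Ahsa2 and Mrgprd, at distances of 0.15 to 0.33 on the log2 scale. Each had 1 peak in each series. For Ptbp2 the nearest 5 of 865 were Sfswap, Mgrn1, Cenpc1, Cep350 and Tnip1, at distances of 0.085 to 0.14. Their peaks numbered from 1 in each series in Tnip1 to 6 and 5 in Cep350. With only 2 libraries, likeness on this measure is a description.

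**Figure D4:**
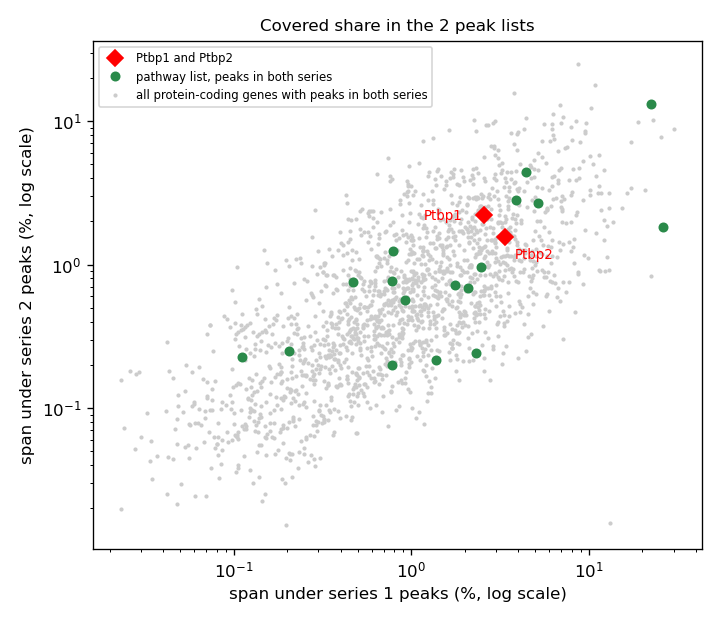
Percentage of the gene span under series 1 peaks (x axis) and series 2 peaks (y axis), both on log scales, for Ptbp1 and Ptbp2 (diamonds), for genes of the pathway list (circles) and for all 1843 protein-coding genes with peaks in both series (dots). Ptbp1 lies at 2.56% and 2.23% and Ptbp2 at 3.36% and 1.55%, inside the cloud of other genes.

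Other genes around PTB function were described by a list of 51. It held genes of 3′ splice site recognition, partner and competing RNA-binding proteins, neuronal and muscle splicing regulators, PTB-regulated transcripts and partners of Raver1. Of these, 25 had a peak in series 1 (49.0%, exact binomial 95% interval 34.8 to 63.4%), against 16.3% of all protein-coding genes. In series 2 there were 22 (43.1%, 29.3 to 57.8%), against 19.5%, and in both series 17 (33.3%, 20.8 to 47.9%), against 8.42%. List genes are longer, with a median of 32.8 kb against 17.2 kb over all protein-coding genes. In the class of genes around that length, series 1 peaks overlapped 21.5%, series 2 peaks 22.2%, and peaks from both libraries 8.96%. List genes run from Pcbp1 at 1.71 kb to Rbfox1 at 1528 kb, whose classes had 0.0914% and 34.3% for both libraries. Because the longest class is so much higher, the class of the median can understate the share to set beside the list. No share matched gene by gene was computed. The list and its background were not tested against each other. The subgroups below were formed after the values were seen, so each count stands beside the share of all protein-coding genes in the length class that holds the subgroup's median, and none was tested.

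Of 5 genes of 3′ splice site recognition, 2 had peaks in both series, where the share in the class of their median length was 2.70%. Those 2, U2af2 at 19.1 kb and Rbm39 at 33.0 kb, are longer and fall in classes with shares of 4.84% and 8.96%. U2af2, the U2AF subunit that contacts the tract itself and helps bring in U2 snRNP, was covered over 26.2% in series 1 and 1.84% in series 2. Rbm39, a relative of U2af2, was covered over 5.16% and 2.68%. Sf1, the branch point binding protein, had a series 2 peak only, and U2af1 and Puf60 had none. Among 13 other binders of U-rich or C-rich RNA, 4 had peaks in both series, against 8.96% of their length class: Tia1, Raly, Pcbp2 and Fubp1. Fubp1, a far upstream element binding protein, was nearly equal between the libraries, at 4.45% and 4.39%. Tia1, which promotes use of weak 5′ splice sites, stood at 0.774% and 0.767%. It had 1 peak in each list, at most 9 bp wider than the narrowest there (221 bp in series 1, 216 bp in series 2). Peaks of such widths give near-equal shares in any gene. Hnrnpc and Hnrnpk, which bind U-rich and C-rich RNA, had no peak.

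Among 9 hnRNP and nuclear matrix genes, Hnrnpa2b1 and Sfpq had peaks in both series, against 4.84% of the length class, at 22.3% and 13.1% and at 1.76% and 0.724%. Matr3, a nuclear matrix protein that binds Ptbp1, had 1 peak, in series 1, as did Hnrnpll, and the PTB-like repressor gene Hnrnpl had none. Of 7 muscle and broadly acting regulators, Celf2, Mbnl2 and Qk had peaks in both series, each over less than 1% of its span. These genes are long (median 156.0 kb), and 34.3% of the longest class had peaks in both series, near the 3 of 7 seen here. Of 8 neuronal regulators, which are long (median 150.7 kb), 6 had no peak in either list, close to the 72.6% of all protein-coding genes without one, although only 24.2% of the longest class had none. They are Elavl2, Elavl3, Rbfox3, Nova1, Nova2 and Srrm4, the last a neural factor that promotes inclusion of the Ptbp2 exon that Ptbp1 represses. Rbfox1, a gene of 1528 kb, had 7 peaks in series 1 and 6 in series 2, and Elavl4 had 3 in series 2. Ptbp2, the neuronal PTB gene, averaged 2.45% ± 1.28, against 0.227% ± 0.0322 in Rbfox1 (SD, n = 2 each). The share is divided by the gene span, which is 65.9 kb in Ptbp2 and 1528 kb in Rbfox1. Length therefore enters this difference, which was not tested.

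Genes whose transcripts are known PTB targets, or whose proteins bind Raver1, had peaks in both series in 5 of 9 cases. The shares were 8.42% of all protein-coding genes and 12.0% of the class of their median length. Of the 5, Vcl, Actn1 and Fgfr2 fall in a longer class with a share of 19.6%, and Pkm in a shorter one with 4.84%. Pkm, the pyruvate kinase gene with a pair of mutually exclusive exons that PTB controls, was covered over 2.47% in series 1 and 0.961% in series 2. Vcl, for vinculin, had 3 peaks in series 1 and 1 in series 2, over 2.09% and 0.682%, and Actn1, for alpha-actinin, 1 in each, over 2.32% and 0.243%. Src and Fgfr2 were the others with peaks in both. Tpm1, the tropomyosin gene with an exon that Ptbp1 and Raver1 repress together, had 1 series 1 peak over 2.85% of its span. Tpm2 and Dlg4 had none. Across the list, peaks of the series touched in 4 of the 17 genes with peaks in both, U2af2, Pcbp2, Hnrnpa2b1 and Pkm. They touched in neither Ptbp1 nor Ptbp2, the only 2 members with peaks in both. The share was 17.6% of all protein-coding genes with peaks in both series.

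**Figure D5:**
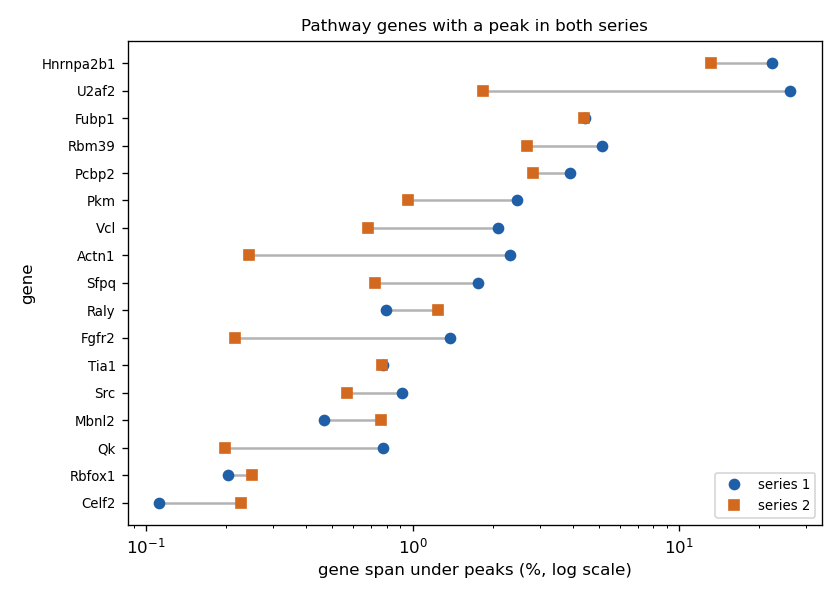
Percentage of the gene span under peaks (log scale) in series 1 (circles) and series 2 (squares) for the 17 genes of the pathway list with a peak in both series, sorted by the mean. Hnrnpa2b1 and U2af2 lie highest, and Celf2 and Rbfox1, the longest genes, lie lowest. Fubp1 and Tia1 are nearly equal in both series, Tia1 with 1 peak close to the minimum width in each list.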

How the data were processed

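H3K36me3 ChIP was compared with input in mTEClo, and 1 broad peak list per ChIP library was used; input reads were not used here. The submitters' processing notes name Bowtie2, SAMtools, MACS2 and mm10; their versions and parameters were not stated in any source used here. Peak names show that series 1 was called against 2 inputs and series 2 against 1, without pooling. The authors deposited a whole-number score for each peak, whose meaning is not stated, so scores were compared only within a list. Depth is unknown.

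Spans, symbols and start windows came from RefSeq tables on GRCm38.p6 (21887 protein-coding genes on the autosomes, X and Y). All 5 members matched the gene table and 4 matched the start windows. A gene counted as having a peak with at least 1 bp of one in its span. Strand was used only where a start window gave it. Coordinates are 1-based.

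Members, the list of 51 genes, markers and comparisons were chosen with earlier results of these data known, and the subgroups of the list, the gaps between peaks and the start windows were added after the values were seen. The genes named are the members, their neighbours within 50 kb, list genes with peaks in both series, and the 5 genes nearest in covered share to each member with peaks in both; others are named after their values were seen, among them list genes with no peak or a peak in 1 series. Some genes of the lists are not reported here by name. No test was run, since there are 2 libraries and 1 condition. Alternatives were score minimums of 20 and 50, a 10% minimum of the span, at least 50% of a peak inside the span, spans extended by 5 kb, peaks touching no other gene, wider peaks and single series. Overlap code was checked on simulated peaks. Python 3.11.15, numpy 2.4.6, pandas 2.3.3, scipy 1.17.1 and matplotlib 3.10.9 were used.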

Additional observations from a re-analysis of the deposited data

How the results depend on the processing

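Of 101 values recomputed under the alternatives, 74 stayed within the limits set for them and 27 moved. The limits were wide, so this tally is not a measure of stability. With a score of at least 20, a fall in mean covered share from 1.06% to 0 in Raver1 counted as staying. So did a fall from 2.45% to 1.23% in Ptbp2. Values that were 0 at the outset, such as those of Raver2, are also among the 74. The count of the 5 genes with a peak was 3 in series 1, 3 in series 2 and 2 in both. With a score of at least 20 it was 3, 1 and 1, with at least 50 it was 1, 1 and 1, and with at least 10% of the span it was 0, 0 and 0. No share of all protein-coding genes is given for the 10% rule. The median share of protein-coding genes with a peak was only 1.19% in series 1 and 0.635% in series 2. The gene left in both series under either score limit was Ptbp2. In both series the count was also 1, again Ptbp2, without peaks that touch another gene, since the series 1 peak of Ptbp1 lies in Plppr3, and without the narrowest peaks of each list, which include the series 2 peak of Ptbp1. Requiring most of a peak to lie inside the span, or extending the spans by 5 kb, changed none of these counts. Either series alone gave 3 genes.

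Mean covered shares depended on the peaks used. That of Ptbp2, 2.45%, was 1.23% with a score of at least 20, and that of Raver1, 1.06%, was 0 with a score of at least 20 or without peaks that touch another gene, and 0.682% with spans extended by 5 kb. That of Ptbp1, 2.39%, was 1.28% with a score of at least 20, 1.20% with spans extended by 5 kb and 1.11% without peaks that touch another gene. The highest score of Ptbp1 in series 1 was 0 without peaks that touch another gene, and in series 2 it was 0 with a score of at least 20. The highest score of Raver1 in series 2 was 0 in both of these settings. Those of Ptbp2 and Ptbp3 moved in neither of them, nor with spans extended by 5 kb. Highest scores were not recomputed without the narrowest peaks. That setting bears on Ptbp2, whose series 2 peak with a score of 63 was 216 bp wide, the narrowest in that list. Its widest series 2 peak, of 367 bp, had a score of 15.

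For the list of 51 genes the counts in series 1, series 2 and both were 25, 22 and 17. With a score of at least 20 they were 16, 11 and 6, against 10.9%, 9.01% and 3.3% of all protein-coding genes. With at least 50 they were 5, 1 and 0, against 1.48%, 0.763% and 0.0868%. With at least 10% of the span they were 2, 1 and 1. Beyond the score limits, no share of all protein-coding genes is given for these settings. Without the narrowest peaks the series 2 count was 13. Either series alone gave 22 to 25 genes. Unknown depth limits every gene without a peak. No paired analysis was possible because the input libraries have no values here and no test was run.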
